A study of Homo sapiens with 9 samples.

Results

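Of the 24037 QKI-5 HITS-CLIP peaks listed for mesHMLE cells, 6047 (25.2%) lay deep inside introns. A peak was taken as deep intronic when it sat inside an intron of a protein-coding transcript on its own strand (GENCODE basic set), overlapped no exon of such transcripts, and had its centre more than 5000 nt from the nearest edge of any of their exons. By the same rule 9916 peaks lay more than 250 and up to 5000 nt from an exon (mid-intron peaks) and 1745 lay within 250 nt (near-exon peaks), so that deep peaks made up 34.1% of the 17708 intronic peaks. No measured height or motif entered the choice of the peaks, only their position.

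HITS-CLIP fixes a protein to RNA with ultraviolet light in living cells, isolates the protein and sequences the RNA bound to it. The cells were mesHMLE, a mesenchymal derivative of the HMLE immortalised human mammary epithelial line obtained with TGF-β1 (2.5 ng/ml for 14 days or more to induce EMT), and they were crosslinked with 600 mJ/cm2. The 9 libraries of the series comprised 3 IP libraries from the gel region of the QKI-5 monomer, 3 from the region of the presumed dimer, 1 dimer library made with SuperScript IV and 2 size-matched inputs. All came from the same cell line and the same state, without an epithelial or QKI-depleted group, and the IP libraries are labelled as technical replicates. They were pooled into 1 peak list, so the values below carry no replicate error and the read depth per library is unknown. Intervals are 95% Wilson intervals for shares and exact Poisson intervals for densities. They cover counting error over peaks only, and peaks of the same transcript are not independent of each other.

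QKI is a STAR-family RNA-binding protein that recognises the sequence ACUAAC in RNA, often together with a shorter UAAY site nearby, and its QKI-5 isoform resides in the nucleus, where introns are present before splicing removes them. QKI bound close to an exon is known to alter the inclusion of that exon, and pairs of QKI sites in the introns on either side of exons have been linked to the formation of circular RNAs. The sequences below are genomic DNA of the hg19 build read on the strand of the RNA, 5′ to 3′, so that T stands for U.

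The following peaks are shown because they were the tallest deep peaks with the QKI core hexamer, or the deep peaks with the most copies of it. Capitals mark ACTAAC and ACTAAT.
TVP23C intron peak: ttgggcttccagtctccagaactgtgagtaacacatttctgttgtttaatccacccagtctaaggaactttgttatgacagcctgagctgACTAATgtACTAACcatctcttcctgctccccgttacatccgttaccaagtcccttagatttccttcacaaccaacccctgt
TSPAN5 intron peak: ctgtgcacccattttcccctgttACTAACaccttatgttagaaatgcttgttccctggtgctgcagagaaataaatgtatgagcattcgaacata
SMYD3 intron peak: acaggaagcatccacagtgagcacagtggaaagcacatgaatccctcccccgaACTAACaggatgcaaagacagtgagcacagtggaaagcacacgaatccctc
WNT5B intron peak: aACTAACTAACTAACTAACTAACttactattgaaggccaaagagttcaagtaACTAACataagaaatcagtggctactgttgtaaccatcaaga
CLYBL intron peak: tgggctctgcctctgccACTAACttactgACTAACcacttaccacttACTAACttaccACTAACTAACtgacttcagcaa
RAB7A intron peak: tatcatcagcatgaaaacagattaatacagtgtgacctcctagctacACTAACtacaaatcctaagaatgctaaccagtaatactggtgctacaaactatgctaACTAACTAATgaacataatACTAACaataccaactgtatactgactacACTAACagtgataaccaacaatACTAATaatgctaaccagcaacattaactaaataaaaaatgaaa
STK10 intron peak: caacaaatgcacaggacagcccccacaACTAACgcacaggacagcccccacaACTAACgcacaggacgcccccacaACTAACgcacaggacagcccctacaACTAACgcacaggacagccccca

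Deep peaks contained ACTAAC far more often than the sequence next to them. ACTAAC was present in 674 of the 6047 deep peaks (11.1%, 10.38 to 11.96%). Among windows of the same length placed 500 nt to the 5′ side, 91 (1.50%) contained it, and 94 (1.55%) did so on the 3′ side. In 668 pairs only the peak held the hexamer and in 85 only the 5′ window did, a ratio of 7.86 (exact McNemar test, two-sided, Benjamini-Hochberg adjusted p = 8.37e-113). Over all 24019 nuclear peaks of the list the share was 10.1%, close to that of the deep peaks. On the opposite strand ACTAAC occurred in 43 deep peaks (0.711%). The 7-letter form TACTAAC was present in 308 deep peaks (5.09%), and ACTAAC or ACTAAT in 916 (15.1%).

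Most deep peaks with ACTAAC held a single copy. Of the 674, 632 had 1 copy, 33 had 2 and 9 had 3 or more, which left 5373 deep peaks without it. A paired core, meaning ACTAAC or ACTAAT with TAAC or TAAT 1 to 20 nt away on either side, was found in 288 deep peaks (4.76%) against 59 of the 5′ windows (0.976%). The paired core was in the peak alone in 285 pairs and in the window alone in 56, a ratio of 5.09 (exact McNemar test, adjusted p = 4.46e-38). The 5 deep peaks with the most copies were those in WNT5B (6), CLYBL (5), RAB7A and STK10 (4 each) and another peak in SMYD3 (3). The SMYD3 peak was the tallest of 5 deep peaks with 3 copies, and ties were settled by height. These 5 named peaks had a paired core.

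The height is a whole number that the authors gave each peak, and what it counts is not given in the sources used here. These peaks differed in height and in the form of the repeated hexamer. The WNT5B peak (chr12:1716098-1716191, plus strand, intron 1 of 4 of the gene of a Wnt ligand) was 20 high, below the median of 22 for deep peaks. Its first 5 copies of ACTAAC overlapped in steps of 4 nt. The CLYBL peak (chr13:100465809-100465888, plus strand) was 24 high and lay 40585 nt from an exon in a gene for a mitochondrial lyase. The RAB7A peak (chr3:128470940-128471157, plus strand, intron 1 of 6) reached a height of 184 and held 2 ACTAAT besides its 4 ACTAAC. RAB7A encodes a GTPase of late endosomes. In the gene of the kinase STK10, the peak (chr5:171503264-171503387, minus strand, intron 12 of 18) was 43 high and its hexamers stood in a tandem repeat: its central 24 letters occurred 5 times within 5000 nt. The SMYD3 peak with 3 copies (chr1:246235619-246235836, minus strand) lay in a similar repeat, with 10 occurrences of its central 24 letters within the same distance.

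The hexamer was concentrated at the middle of the deep peaks. Within 250 nt of the centres there were 1948 starts of ACTAAC, of which 612 (31.4%, 29.4 to 33.5%) fell within 25 nt of the centre. This zone makes up 10.2% of the stretch, so the sites were 3.09 times as dense there as under uniform placement (exact binomial test, two-sided, adjusted p = 7.60e-145). The densest bin was the 10 nt just 5′ of the centre.

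**Figure D1:**
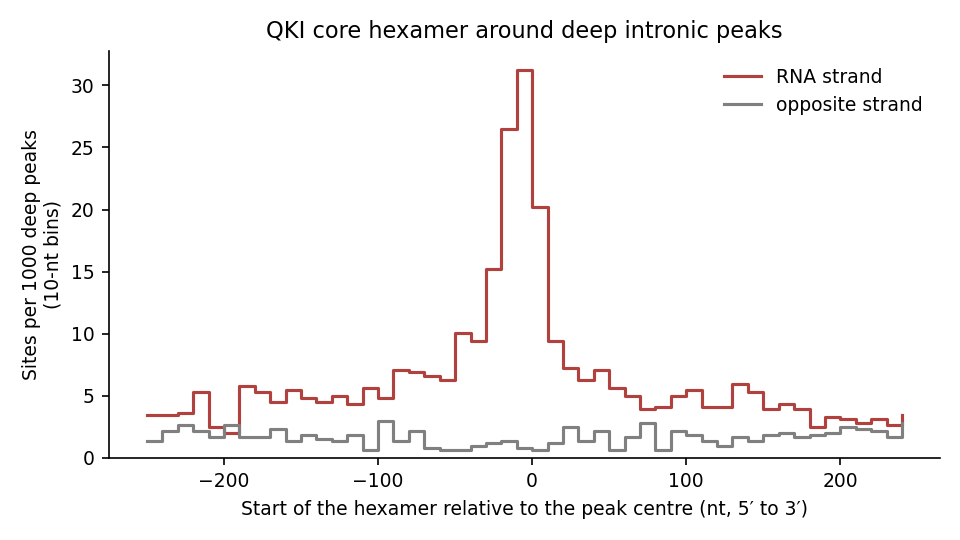
Starts of ACTAAC per 1000 deep intronic peaks in 10-nt bins from 250 nt 5′ to 250 nt 3′ of the peak centre, on the RNA strand (red) and the opposite strand (grey). The red line peaks within 25 nt of the centre, which holds 612 of the 1948 sites, and the grey line shows no rise there.

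The bases next to the hexamer were compared with those next to the copies outside the peaks. The 20 nt upstream of the 732 ACTAAC copies in deep peaks were 32.1% T and 24.6% C, and those upstream of the 195 copies in the flanking windows were 32.3% T and 23.5% C. Downstream of the hexamer, C made up 26.7% in the peaks and 20.8% in the windows. Deep peaks as a whole were richer in G (25.8%) and C (24.5%) than their windows (20.9% and 20.7%).

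Deep peaks with a greater deposited height held the hexamer more often. ACTAAC was present in 6.77% (5.19 to 8.80%) of the 753 deep peaks with a height under 15. The share was 10.9% (9.41 to 12.7%) of the 1408 peaks from 25 to 34, 23.2% (19.1 to 27.9%) of the 353 from 50 to 99, and 31.8% (23.0 to 42.1%) of the 88 peaks at 100 or more. Peak width moved with height, from a median of 50 nt in the lowest group to 96.5 nt in the highest. In a fixed 60 nt around the centre the shares were 7.04% in the lowest and 23.9% in the highest group. The order of the groups was the same on both measures, and no test was made across them.

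**Figure D2:**
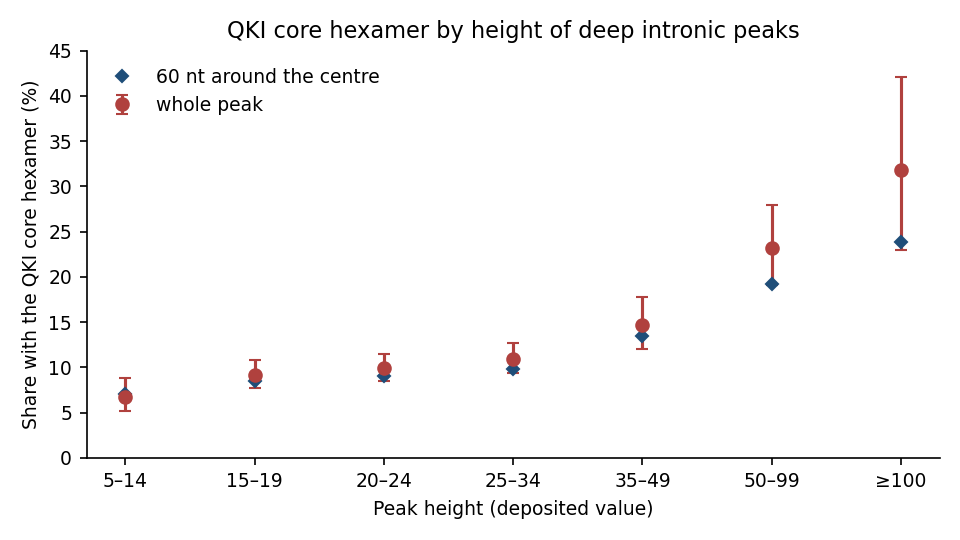
Share of deep intronic peaks with ACTAAC (%) by the deposited peak height, for the whole peak (red circles, bars are 95% Wilson intervals) and for 60 nt around the centre (blue diamonds). The share of whole peaks goes from 6.77% under a height of 15 to 31.8% at 100 or more.

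The share of peaks with the hexamer was then compared over distance. ACTAAC was in 11.1% of deep, 10.2% (9.62 to 10.8%) of mid-intron and 12.3% (10.9 to 13.9%) of near-exon peaks. Deep and mid-intron peaks did not differ past the threshold (odds ratio 1.11, Fisher's exact test, two-sided, adjusted p = 0.0951 over 8 comparisons), nor did deep and near-exon peaks (odds ratio 0.891, Fisher's exact test, adjusted p = 0.247). Among peaks at or above the median height the latter difference passed the threshold (odds ratio 0.755, Fisher's exact test, adjusted p = 0.0151). With only the tallest peak of each gene and class the odds ratios were 0.9996 and 1.014. This setting picks peaks by height, with which the hexamer share rose, and the classes differ in peaks per gene. It therefore does not compare the shares on equal terms. Without the 10 genes that hold the most deep peaks, the share in deep peaks exceeded that in mid-intron peaks (odds ratio 1.17, Fisher's exact test, adjusted p = 0.00623). Among the deep peaks, 244 of the 2100 more than 20000 nt from an exon (11.6%, 10.3 to 13.1%) held ACTAAC, against 430 of the 3947 at 5000 to 20000 nt (10.9%, 9.96 to 11.9%). The difference did not pass the threshold (odds ratio 1.08, Fisher's exact test, adjusted p = 0.447), and passed it without the same 10 genes (1.21, adjusted p = 0.0427). In the 192 peaks beyond 100000 nt the share was 7.81% with a wide interval (4.79 to 12.5%).

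**Figure D3:**
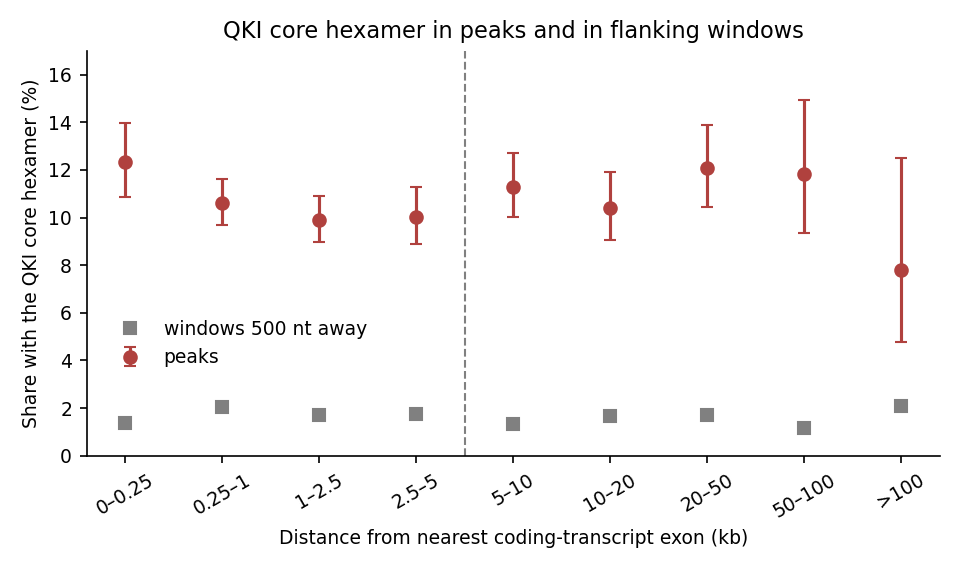
Share of intronic peaks with ACTAAC (%) by distance of the peak centre from the nearest exon (kb), with 95% Wilson intervals (red), beside the mean share in windows 500 nt to either side (grey squares). The dashed line marks the 5 kb limit, beyond which shares of 7.81 to 12.1% stand above window shares of 1.17 to 2.08%.

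Deep peaks were spread thinly over a large territory. Deep intron, counted as every base that meets the same rule, came to 571.6 Mb in 8528 protein-coding genes, and it held 10.6 deep peaks per Mb. Mid-intron sequence came to 500.9 Mb with 9916 peaks. The density of deep peaks was 0.534 times that of mid-intron peaks (exact binomial test on the counts given the lengths, log10 of the p-value = -333), and 0.539 times when only genes with a peak in an exon were taken. Density was 20.4 peaks per Mb (19.4 to 21.3) within 250 nt of an exon and 23.0 (22.3 to 23.8) from there to 1000 nt. Peaks that overlap an exon were not counted, while the bases next to exons were, which lowers the first value. These 2 densities are therefore not on an equal footing. It was 13.3 (12.8 to 13.9) at 5000 to 10000 nt, 8.80 (8.35 to 9.28) at 20000 to 50000 nt and 6.18 (5.34 to 7.12) beyond 100000 nt. From 250 nt outwards each interval lay below that of the distance before it, with the exception of the overlap between 20000 to 50000 nt and 50000 to 100000 nt. In genes with a peak in an exon the density did not fall steadily. It was 97.0 per Mb at 250 to 1000 nt, 38.4 at 5000 to 10000 nt and 31.0 at 20000 to 50000 nt, then 65.2 at 50000 to 100000 nt (168 peaks) and 39.1 beyond 100000 nt (55 peaks). Transcript levels were not used here, so binding and transcript abundance cannot be told apart in these densities.

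**Figure D4:**
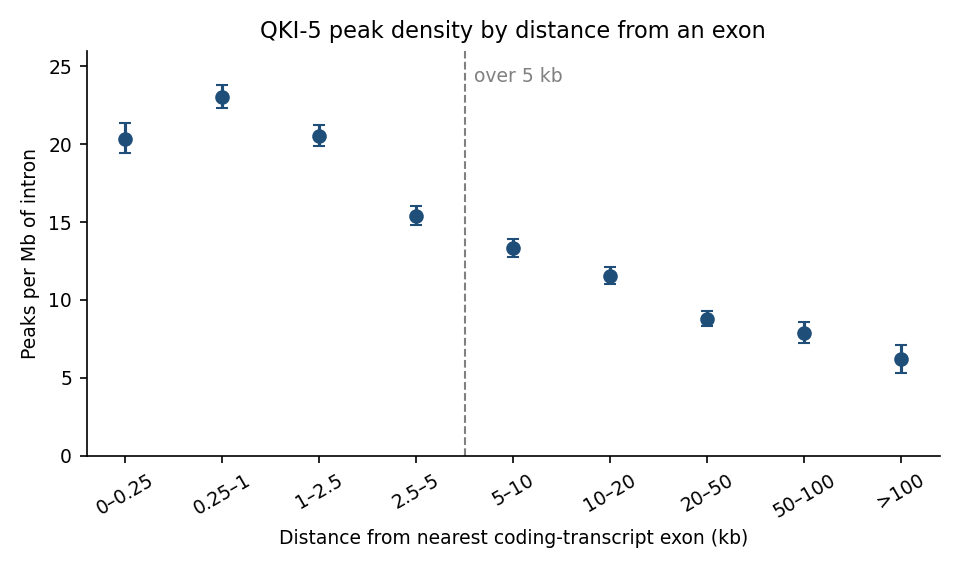
QKI-5 peaks per Mb of intron in protein-coding genes by distance from the nearest exon (kb), with exact 95% Poisson intervals. Density is 23.0 per Mb at 250 to 1000 nt and 6.18 per Mb beyond 100000 nt, and the points to the right of the dashed line are the deep intronic peaks.

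Introns did not hold deep peaks in proportion to their length. Of the deep peaks, 3790 (62.7%, 61.4 to 63.9%) lay on the 5′ side of the middle of their host intron, the shortest intron that contains the peak, and 52.1% of deep territory lies there. The ratio was 1.203 (exact binomial test, two-sided, adjusted p = 2.95e-61). First introns held 2726 deep peaks (45.1%, 43.8 to 46.3%) against 34.8% of the territory, a ratio of 1.296 (exact binomial test, adjusted p = 3.81e-61). In both comparisons the territory covered all protein-coding genes with deep intron, also those without a deep peak. Which genes held peaks and where in them the peaks lay therefore cannot be told apart in these ratios. Second introns held 1154 (19.1%) and last introns 426 (7.04%). Both ratios stayed above 1 and past the threshold with 1 peak per gene, but the expected shares were left unchanged. They weight genes by length, while the peaks then count each gene once, so this setting does not check the ratios on equal terms.

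Distances ranged from 5001 to 213894 nt, with a median of 13710 nt and quartiles at 8155 and 26856 nt. The host introns numbered 2000, with a median length of 41833 nt. For 4579 deep peaks (75.7%) the host intron belonged to the Ensembl canonical transcript of the gene. The 5 deep peaks farthest from an exon lay in MAGI2 (213894 and 200551 nt), RORA (209584 nt), IMMP2L (206812 nt) and MAGI1 (200438 nt). MAGI1 and MAGI2 encode scaffolds of cell junctions, RORA a nuclear receptor and IMMP2L a mitochondrial peptidase subunit. These 5 peaks were 23 to 35 high, had no other peak within 1000 nt and held no ACTAAC. The 3 peaks just inside the limit were in CABIN1 (5001 nt, height 11), ACTN4 (5004 nt, height 15) and PPP2R5A (5006 nt, height 46). Those just outside were in FOXK2 (5000 nt, height 13), MFSD14B (4999 nt, height 13) and NAV1 (4997 nt, height 18).

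In height and width, deep peaks were slightly smaller than the other intronic peaks. The median height was 22 (quartiles 18 and 29) against 23 (18 and 33) for both mid-intron and near-exon peaks, and the median width was 59 nt against 62 and 64 nt. A height of 23 or more, the median over all nuclear peaks, was reached by 49.7% (48.5 to 51.0%) of deep and 53.3% (52.4 to 54.3%) of mid-intron peaks (odds ratio 0.864, Fisher's exact test, adjusted p = 2.21e-05). Near-exon peaks reached it in 52.8% (odds ratio 0.882, Fisher's exact test, adjusted p = 0.0449), a call that was lost with a limit of 2500 nt (adjusted p = 0.102) and with exons of every transcript (adjusted p = 0.0621). With only the tallest peak of each gene and class, the order turned, to odds ratios of 1.06 against mid-intron (adjusted p = 0.558) and 1.36 against near-exon peaks (Fisher's exact test, adjusted p = 0.00126). This setting picks peaks by height, and the classes differ in peaks per gene. Deep peaks numbered 6047 in 1479 genes and near-exon peaks 1745 in 996, so the setting cannot compare their heights. At the upper end the 95th percentile of height was 57 in deep and 76 in mid-intron peaks.

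The tallest deep peak had a height of 515 and lay in intron 1 of RBM26, which encodes an RNA-binding protein (chr13:79973838-79973914, minus strand), 5963 nt from the nearest exon. It held neither ACTAAC nor ACTAAT and is shown as the tallest member without the core.
RBM26 intron peak: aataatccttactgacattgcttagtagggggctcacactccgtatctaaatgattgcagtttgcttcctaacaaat

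The next in height was the peak shown above from the last intron of TVP23C (chr17:15419584-15419755, minus strand), a gene for a Golgi vesicle protein homologue. It was 411 high and had an ACTAAT 2 nt before an ACTAAC. It overlapped an exon of a TVP23C transcript annotated for nonsense-mediated decay, which the rule does not count. TVP23C held 30 deep peaks in all, and another of them, 278 high and without the core, was also among the 10 tallest. The TSPAN5 peak (chr4:99479367-99479461, minus strand) was 381 high, stood alone within 1000 nt and lay 50535 nt from an exon in intron 1 of a gene for a tetraspanin. Its central 24 letters occurred 18 times in the genome. The SMYD3 peak (chr1:246235436-246235539, minus strand) was 338 high and 142249 nt from an exon, in intron 5 of a lysine methyltransferase gene. It was a neighbour of the SMYD3 peak in repeated sequence described above. One 12-letter word occurred 2 times in it, and 10 ACTAAC stood within 1000 nt, its own included. Of the 10 tallest deep peaks, only those of TVP23C (height 411), TSPAN5 and SMYD3 held ACTAAC.

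Tall peaks without the core lay in repeated sequence as well, among them those of CELF1 and DYM, and the taller DYM peak is shown as an example, without capitals since it did not hold the core.
DYM intron peak: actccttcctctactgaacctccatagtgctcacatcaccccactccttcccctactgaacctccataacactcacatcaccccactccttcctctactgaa

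The CELF1 peak (chr11:47566874-47567003, minus strand, height 329), in intron 1 of a gene for a splicing regulator, matched the opposite strand of 7SL RNA, the RNA from which Alu repeats derive. Neighbouring DYM peaks (heights 321 and 293) lay in the last intron (chr18:46593466-46593567, minus strand for the taller). In the taller DYM peak one 12-letter word occurred 2 times and in the other 3 times. DYM encodes a Golgi-associated protein. Low mapping quality was removed before peaks were called, so what a repeat shows depends on the reads that could still be placed.

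Matches to repeats were counted in all intronic peaks. A match to 7SL RNA was found in 920 deep peaks (15.2%, 14.3 to 16.1%) and in 1470 mid-intron peaks (14.8%, 14.1 to 15.5%), a difference that did not pass the threshold (odds ratio 1.03, Fisher's exact test, adjusted p = 0.507). It passed the threshold with a limit of 2500 nt (1.11, Fisher's exact test, adjusted p = 0.0324) and without the 10 genes that hold the most deep peaks (1.11, adjusted p = 0.0340). The order turned with a limit of 10000 nt (0.902) and with exons of every transcript (0.925), short of the threshold. Near-exon peaks had such a match in 3.78%. Among the deep matches 490 were sense and 430 antisense to 7SL RNA. ACTAAC was in 10 of the sense matches (2.04%), 4 of the antisense matches (0.930%) and 660 of the 5127 other deep peaks (12.9%). The central 24-mer was unique in the genome for 5257 deep peaks (86.9%) and had 10 or more copies for 441 (7.29%).

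Hexamers present in at least 1% of deep peaks were ranked by how much more often peaks than windows held them, and ACTAAC stood first (ratio 7.29). Of the next in rank, CTAACC (5.90% against 1.199%, ratio 4.92) overlaps it. Then came GAGGGG (5.47% against 1.29%, ratio 4.24), GGAGGG (7.03% against 1.66%, ratio 4.23) and GAGGGC (3.22% against 0.810%, ratio 3.98). In the 5131 deep peaks without ACTAAC or ACTAAT, the top 5 were GAGGGG (ratio 4.96), GGAGGG (4.70), GAGGGC (4.49), GCAGGG (4.45) and AGGGAG (4.10). These letters were searched on the RNA strand, and several overlap each other. The other intronic peaks held the G-rich words too, and GGAGGG was in 6.65% of mid-intron and 10.4% of near-exon peaks, where the windows held it in 2.32% and 4.04%. The tallest deep peak of CCBE1 is shown as an example, with GAGGGG and GGAGGG in capitals.
CCBE1 intron peak: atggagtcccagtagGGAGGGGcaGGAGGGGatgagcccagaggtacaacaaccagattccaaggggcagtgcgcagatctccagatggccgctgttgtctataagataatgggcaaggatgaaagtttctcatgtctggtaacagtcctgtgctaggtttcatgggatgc

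Deep peaks had a close neighbour less often than mid-intron peaks. A further peak centre on that strand was found no more than 1000 nt away for 3512 deep peaks (58.1%, 56.8 to 59.3%) and 6629 mid-intron peaks (66.9%, 65.9 to 67.8%), an odds ratio of 0.687 (Fisher's exact test, adjusted p = 3.63e-28). The neighbour could be of any class, peaks over exons included, and deep peaks were also less dense (0.534 times the mid-intron density). The odds ratio was adjusted for neither. Joined at up to 1000 nt from centre to centre, the deep peaks formed 3581 runs. Of these, 2568 were single peaks and 177 had 5 or more, which together held 1428 deep peaks (23.6%). Runs of 22 peaks were the longest and were found in PRRC2B (5015 nt), CRIM1 (5333 nt) and HPCAL1 (3459 nt). In PRRC2B 11 of the 22 peaks matched 7SL RNA, in HPCAL1 2 did and in CRIM1 none.

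Few deep peaks touched exons of other annotated transcripts. Such an overlap was seen for 109 deep peaks (1.80%, 1.50 to 2.17%) and 1244 mid-intron peaks (12.5%, 11.9 to 13.2%), with an odds ratio of 0.128 (Fisher's exact test, adjusted p = 1.18e-149). Exons of these transcripts can lie on or near coding-transcript exons, from which the rule keeps deep peaks away. How much of each territory they cover was not measured, so the odds ratio does not measure a preference of binding. The 109 included 27 peaks on exons of transcripts without a defined coding sequence, 24 on lncRNA exons and 14 on retained introns, 4 on snRNA and 3 on miRNA genes. Peaks that overlapped more than 1 of the annotated kinds are left out of these counts. The tallest of them was the TVP23C peak of height 411.

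Deep peaks were found in 1479 genes, 17.3% of the 8528 protein-coding genes with deep intron. Of these host genes 604 had 1 deep peak, 535 had 2 to 4, 300 had 5 to 19 and 40 had 20 or more, and the last group held 23.7% of all deep peaks. Host genes had a median of 0.061 Mb of deep intron, and genes without a deep peak 0.0149 Mb. A mid-intron peak was also present in 830 host genes (56.1%) and a near-exon peak in 268 (18.1%), while 617 (41.7%) had no other intronic peak. Peaks over exons were not counted here. Among all protein-coding genes, with or without deep intron, 2868 had a mid-intron and 996 a near-exon peak. The shares among all genes with deep intron were not measured, so those of the host genes cannot be read as high or low.

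The 10 genes with the most deep peaks held 683 of them (11.3%). CCBE1, which encodes a secreted protein of lymphatic development, had 131, all in its 216390-nt intron 2 (chromosome 18, minus strand). That is 628 per Mb (525 to 745) of deep intron, against 10.6 per Mb over all genes. Their heights ran from 8 to 196 with a median of 23, and 4 held ACTAAC (3.05%). NAV2, a gene for a neuron navigator protein linked to the cytoskeleton, had 124 in 5 introns (220 per Mb), with heights of 7 to 99, and 76 of them lay in the 481455-nt intron 1. The share with ACTAAC was 7.26% in NAV2, and its tallest deep peak held 2 copies, as shown here.
NAV2 intron peak: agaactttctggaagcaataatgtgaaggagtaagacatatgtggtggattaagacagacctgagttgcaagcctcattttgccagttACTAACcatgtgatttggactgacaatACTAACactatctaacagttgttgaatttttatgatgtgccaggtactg

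EXT1, a gene for a heparan sulfate glycosyltransferase, had 75 deep peaks in intron 1 (285 per Mb), with heights of 9 to 198. ASAP1, whose product is a GTPase-activating protein for Arf, had 53 in 7 introns (236 per Mb). CRIM1, which encodes a transmembrane protein with cysteine-rich repeats, had 65 (694 per Mb, 535 to 884), the highest density among the 10, and 47 of them lay in its 39990-nt intron 1. In SMYD3, 52 of 62 lay in intron 5, and at 93.9 per Mb (72.0 to 120) it was among the 2 least dense of the 10. The other one was KCNMA1, the gene for the pore subunit of a calcium-activated potassium channel, with 43 (79.5 per Mb) and no height above 56. EFNA5, the gene of the ligand ephrin-A5, had 48 (183 per Mb). STARD13 had 42 (270 per Mb), 39 of them on the 5′ side of their intron. IGF2BP2, an RNA-binding protein gene, had 40 (339 per Mb).

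**Figure D5:**
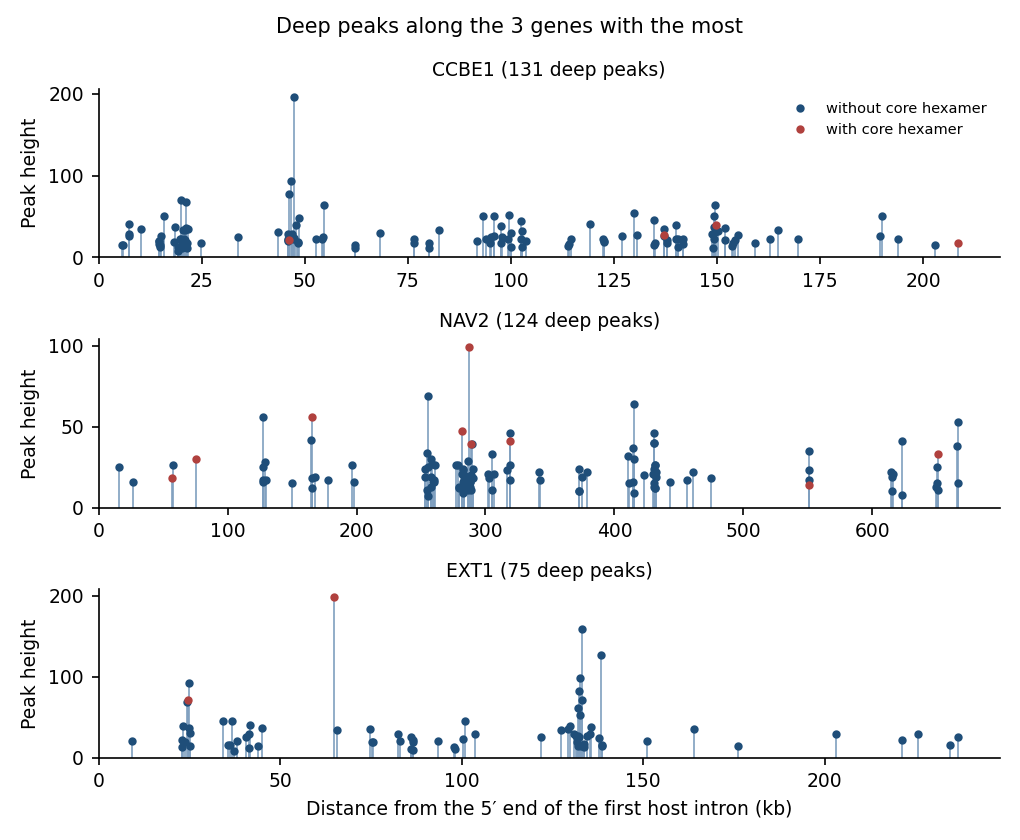
Height of each deep intronic peak against its distance from the 5′ end of the first host intron (kb) in CCBE1, NAV2 and EXT1, the 3 genes with the most (131, 124 and 75). Red points hold ACTAAC, and peaks stand in groups separated by stretches without any.

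In these 10 genes the hexamer was in 2.67% (EXT1) to 12.9% (SMYD3) of deep peaks, and SMYD3 alone was above the 11.1% of all deep peaks. The SMYD3 peaks with ACTAAC include the neighbouring ones in repeated sequence described above. The tallest deep peaks with ACTAAC in CRIM1 (chr2:36596082-36596225, plus strand, height 124), STARD13 (chr13:33845735-33845846, minus strand, height 226) and EFNA5 (chr5:106974025-106974101, minus strand, height 83) are shown because the first and second were also the tallest deep peaks of their gene.
CRIM1 intron peak: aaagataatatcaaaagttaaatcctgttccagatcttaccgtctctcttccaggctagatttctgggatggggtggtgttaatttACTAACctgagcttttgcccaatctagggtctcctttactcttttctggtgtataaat
STARD13 intron peak: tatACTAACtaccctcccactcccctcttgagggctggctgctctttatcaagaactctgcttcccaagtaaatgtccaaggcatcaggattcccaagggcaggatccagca
EFNA5 intron peak: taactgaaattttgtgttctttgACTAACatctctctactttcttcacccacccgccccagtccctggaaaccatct

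Genes of EMT-related processes were examined by lists. Against the 17.3% of all genes with deep intron, a deep peak was present in 27 of 52 actin cytoskeleton genes (51.9%) and in 21 of 37 junction and polarity genes (56.8%). The same held for 25 of 49 serine/threonine kinases (51.0%) and 18 of 33 genes of TGF-β, Wnt and Hippo signalling and EMT (54.5%). In the splicing factor list 10 of 28 genes had a deep peak (35.7%), and in the integrin, matrix and adhesion list 7 of 27 (25.9%). The listed genes have longer deep introns than the median of 0.0197 Mb over all genes, with list medians of 0.0325 to 0.0823 Mb for these 6 lists, so the shares are not on an equal footing. Per Mb of deep intron, the integrin and matrix list (12.2) was near the 10.6 of all genes. The junction list had 15.8, the kinases 17.5, the splicing factor list 17.8, the actin list 18.8 and the signalling list 34.4. The value for all genes includes genes without a deep peak, and transcript levels were not used. Binding and transcript abundance therefore cannot be told apart in these densities either. No test was made on the lists, since they were chosen with results of these data known.

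Among actin and myosin genes, the most deep peaks were in DIAPH3, a formin gene (17, heights up to 58, 4 with ACTAAC), MICAL3, a gene for an actin-oxidising enzyme (16, up to 56), LPP (14, up to 75, 6 with ACTAAC) and DST (12, up to 48). ACTN4, which encodes an α-actinin, had 6 deep peaks beside 24 other intronic ones, and none of its heights exceeded 35. CALD1 and VCL had none. Among junction genes, LMO7 and CDH13 had the highest counts with 14 and 13 (116 and 12.8 per Mb of deep intron). NUMB and PARD3 followed with 10 each (98.9 and 19.8 per Mb), then DLG1 and MAGI2 with 9 each (113 and 7.38 per Mb). Over all genes the density was 10.6 per Mb. PARD3 encodes a polarity scaffold and CDH13 a cadherin. CTNND1, the gene of p120 catenin, had 7 in 0.0149 Mb of deep intron (470 per Mb), 1 of them with ACTAAC.

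Of the kinases, TRIO, which joins kinase and guanine-exchange domains, had 31 deep peaks, with a tallest value of 183. PRKCA had 15 (3 with ACTAAC) and MINK1 11, and all 3 deep peaks of MAP4K4 held ACTAAC. In the signalling list TEAD1, a transcription factor of the Hippo pathway, had 18 and TCF7L2 of the Wnt pathway 10. The receptors BMPR1A, TGFBR1, TGFBR2 and TGFBR3 had 7, 2, 2 and 1, and the receptors ACVR1, ACVR2A and BMPR2 had none. ZEB1 and ZEB2, repressors of epithelial genes, had 3 and 7, with heights up to 24 and 30.

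In the splicing factor list, which also counts the RBMS genes, MBNL1 and RBMS3 had 24 deep peaks each (209 and 18.9 per Mb of deep intron). Their tallest values were 48 and 111. CELF1 had 18 (575 per Mb) with the value of 329 given above. RBFOX2 had 10, RBMS1 9 and QKI itself 6, none of which held ACTAAC and none of which exceeded a height of 28. RBFOX1, with 2.21 Mb the largest deep territory of the splicing list, had none. In the integrin and matrix list PTK2, the focal adhesion kinase gene, had 5 beside 38 other intronic peaks, and COL5A2 had 4. Of the markers of cell state, 3 of 4 mesenchymal genes with deep intron had a deep peak (CDH2, ZEB1 and ZEB2), and none of the 5 epithelial genes (CDH1, EPCAM, ESRP1, GRHL2 and OCLN) did, nor did these 5 have any other intronic peak. The deep introns of the epithelial genes came to 0.151 Mb in all, in which the mean density of all genes would put 1.60 peaks. The mesenchymal genes held 13 deep peaks in 0.370 Mb, where that density would put 3.92. Of all genes with deep intron, 17.3% had a deep peak. The median deep intron was 0.107 Mb in the mesenchymal and 0.0137 Mb in the epithelial genes, so their shares are not on an equal footing.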

How the data were processed

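The authors trimmed reads with cutadapt 1.3, mapped them to hg19 with TopHat2 2.0.10, collapsed them by position, alignment and barcode, filtered on mapping quality, merged all libraries and ran peak calling per strand with MACS2 2.1.1.20160309 against size-matched input. The deposited height, a whole number per peak whose unit is not given in the sources used here, was treated as a signal and compared only within the list. GRCh37 gave the sequence, and GENCODE release 44 lifted to that build gave the gene models. All 25 chromosome names matched and no peak passed a chromosome end. The 18 mitochondrial peaks were left out.

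Members and gene lists were chosen with earlier results of these data known. Named were the 10 genes with the most deep peaks, the 10 tallest, 5 farthest and 5 most ACTAAC-rich peaks, 3 on each side of the limit, the top 5 hexamers and the list genes. Further tall peaks of these genes were chosen after their values were seen. Shares were compared by exact McNemar, Fisher's exact (0.5 added to each cell for odds ratios) and binomial tests, adjusted by Benjamini-Hochberg over 8 and 6 comparisons. 7SL similarity was measured with BLAST+ 2.17.0 (E value up to 1e-05, at least 30 nt) against annotated 7SL copies in place of the RN7SL1 gene that had been planned. Scripts (Python 3.11.15, scipy 1.17.1, pysam 0.24.0) were tested on simulated data. Alternatives changed heights, limits, gene models, windows, motifs, repeats and peaks per gene. A few of the genes and peaks that these rules name are not reported here.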

Additional observations from a re-analysis of the deposited data

How the results depend on the processing

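No replicate error or depth exists for any value, since the authors pooled the libraries before calling peaks. No paired analysis was possible because the pooled list carries no library or replicate number. The list held no overlapping peaks on a strand, so merging them changed nothing. The excess of ACTAAC over windows (ratios 5.08 to 14.8), the paired core (3.58 to 8.07), the central position (3.02 to 4.16), the 5′ side (1.18 to 1.21), first introns (1.201 to 1.326), neighbours (0.616 to 0.801), other exons (0.117 to 0.169) and density (0.498 to 0.559) kept their direction and side of the threshold under all alternatives run. For the 5′ side and first introns, the expected share came from the territory of all genes in each setting.

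The other comparisons changed under some settings, and the cause was not tested. With 1 peak per host gene, the odds ratio of ACTAAC was 0.9996 against mid-intron and 1.014 against near-exon peaks, and that of tall peaks 1.06 and 1.363. All 4 values rest on the tallest peak of each gene and class, so they cannot compare heights between classes. The share with ACTAAC rose with height, so they do not compare that share on equal terms either. ACTAAC against near-exon peaks was 0.7553 among tall peaks, past the threshold, and 1.01 without 7SL-like peaks. The tall share against near-exon peaks missed the threshold with a limit of 2500 nt (0.9135) and with exons of every transcript (0.8834). The 7SL-like share against mid-intron peaks was 1.111 with 2500 nt, past the threshold, 0.9023 with 10000 nt and 0.9254 with exons of every transcript. Leaving out the 10 genes with the most deep peaks, chosen after seeing the data, gave 1.174 for ACTAAC against mid-intron peaks, 1.11 for the 7SL-like share and 1.213 for ACTAAC beyond 20000 nt, each past the threshold. The alternatives without repeated 24-mers and with 60 nt around the centre over and under 20000 nt were also added after seeing the data and changed no direction or call.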
